A study of Rattus norvegicus with 8 samples.

Results

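The genes described here encode the carriers that move amino acids and neurotransmitters across the cell membrane and the lysosomal membrane, together with the chaperone-like heavy chains of some of them. They were chosen by name, as every gene on the array whose symbol belongs to the solute carrier families Slc1, Slc3, Slc6, Slc7, Slc36, Slc38 or Slc43. This gave 59 genes on 76 probes, of 16520 named genes and 41012 probes in all. Slc7a6os, which is named for its place beside Slc7a6 and encodes no carrier, also fits the rule and is described apart. Expression was measured in BRL-3A, an established rat liver cell line, in 2 groups of 4 Agilent arrays with 1 colour. The siRNA group received an siRNA that targets lnc19959.2, a long noncoding RNA, and the comparison group had the transfection labelled NC, an abbreviation the labels do not expand. Both groups were kept in the same serum-supplemented medium and harvested 48 h after lipofectamine transfection. The level of lnc19959.2 itself was not analysed here, so the knockdown was not checked on these arrays. Levels are log2 processed intensities relative to the 75th percentile of the same array, so that 0 is a signal at that percentile, and differences are siRNA minus NC on that scale.

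Amino acid carriers work either as exchangers, which trade one amino acid for another, or as ion-coupled pumps, which use the sodium or proton gradient to fill the cell. The exchangers of the Slc7 family are light chains that reach the membrane only when bound to a heavy chain, Slc3a2 (CD98) or Slc3a1 (rBAT). When amino acids run short, mammalian cells raise the transcription factor ATF4, whose known targets include Slc7a11, Slc7a5, Slc3a2 and Slc38a2. On the lysosome, a separate set of carriers reports the amino acid supply to the kinase complex mTORC1. The creatine, taurine and betaine carriers of the Slc6 family belong to the same protein family as the carriers of GABA, glycine, noradrenaline, dopamine and serotonin in neurons.

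The arrays limited what could be compared. The 75th percentile of the processed intensity lay between 289 and 322 on siRNA arrays and between 245 and 261 on NC arrays, and 55.4% to 59.1% of spots on siRNA arrays and 57.3% to 64.1% on NC arrays were well above background. The siRNA arrays shared a slide and a scan, and the NC arrays shared another slide and another scan, so slide, scan and treatment cannot be told apart. The labels do not say whether arrays of a group came from separate cultures. Each p-value therefore reflects the array-to-array spread alone, and this spread may be technical. The labels give the tissue as liver, but the hepatocyte genes Alb, Ttr, Ahsg, Serpina1, Tat and Ass1 were above background on no array, while the fibroblast genes Col1a1, Col1a2, Col3a1, Dcn, Des, Vim and Pdgfrb were above background on all 8. Lum, also a fibroblast gene, was above background on no array, and Thy1 on 2 NC arrays alone. Apob and Cps1 of the hepatocyte list were seen on a few arrays and not tested. Only 4 of 12 hepatocyte markers were measured, and their summed linear signal, in multiples of the 75th percentile, was 0.151 to 0.217 on siRNA arrays and 0.964 to 1.22 on NC arrays. Of these 4, Apoa1 and Asgr1 were called lower, Hnf4a higher and Fgb was not called. Apoa1 and Asgr1 counted as measured through the NC arrays alone and Hnf4a through the siRNA arrays alone, so these calls add no support. The sum also holds the siRNA signals of Asgr1, which was above background on no siRNA array. The 7 measured fibroblast markers of 9 summed to 312 to 328 on siRNA arrays and 266 to 294 on NC arrays. The 4 measured endothelial markers of 5 summed to 3.07 to 4.22 on siRNA arrays and 1.5 to 2.07 on NC arrays, with Kdr and Cdh5 called higher and Vwf and Tek lower. Cdh5 counted as measured through the siRNA arrays alone, and Vwf and Tek through the NC arrays alone. The 2 measured cholangiocyte markers of 5 summed to 3.47 to 4.23 on siRNA arrays and 1.13 to 1.42 on NC arrays, with Krt7 called higher and Sox9 lower. Sox9 counted as measured through the NC arrays alone. The 2 measured leukocyte markers of 6 summed to 5.13 to 6.2 on siRNA arrays and 6.4 to 7.24 on NC arrays. Of these, Cd68 was called lower and Cd14 was not called. The part of all these markers in the carrier differences was not tested. In bulk RNA of this kind, fewer cells of a type and less RNA per cell cannot be told apart.

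Of the 59 genes, 22 were measured, meaning that at least 1 probe was well above background on at least 3 of the 4 arrays of a group. Of these, 20 were above background on all 8 arrays, and the other two, Slc3a1 and Slc36a1, passed through the NC group alone. Another 26 genes were above background on no array, and 11 were seen on a few arrays and not tested. The measured genes cover much of general amino acid supply: 3 of 4 system L carriers, both heavy chains, both carriers of the ASC type and 6 of 11 genes of the Slc38 family. The neurotransmitter carriers were mostly not above background. Of 9 such Slc6 genes, Slc6a9 (GlyT1, a glycine carrier) alone was measured, and Slc6a3 (dopamine), Slc6a4 (serotonin), Slc6a5 (glycine) and Slc6a7 (proline) were above background on no array. Of 7 neuronal and glial markers, Snap25, Syp and Th were above background on no array, Gfap and Aqp4 on 2 NC arrays each, and Tubb3 and Mbp on all 8. Among the Slc1 glutamate carriers, Slc1a3 alone was measured, with Slc1a1, Slc1a2, Slc1a6 and Slc1a7 above background on no array. The plot of detection by gene shows this by family.

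**Figure D1:**
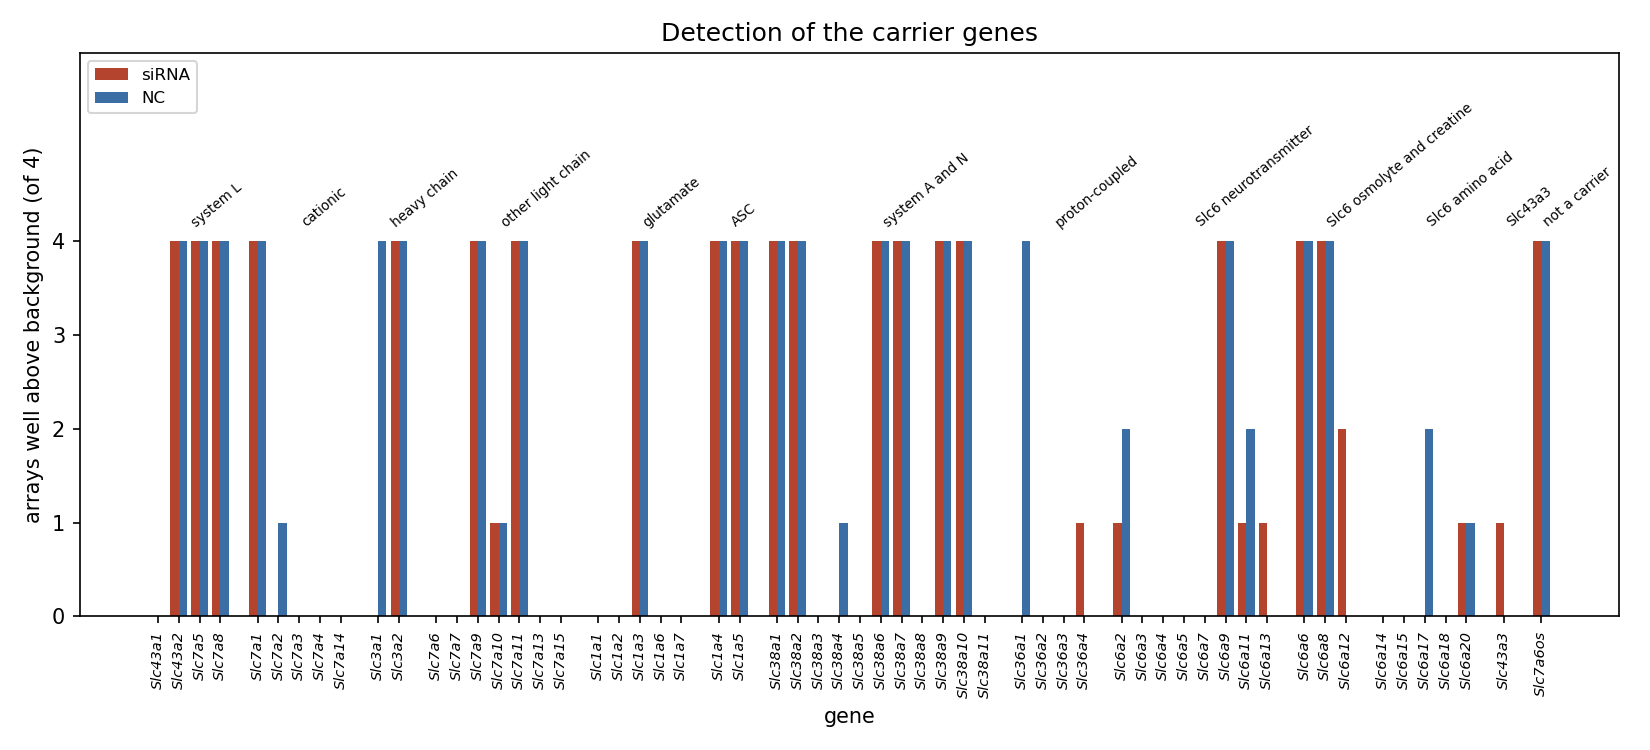
Number of arrays of 4 on which each gene shown was well above background (best probe), siRNA in red beside NC in blue, with genes grouped by role along the horizontal axis. Most bars are either at 4 in both groups or at 0, and Slc3a1 and Slc36a1 stand at 0 in siRNA and 4 in NC.

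Among the 22 measured genes, limma called 5 higher and 11 lower in siRNA cells at an adjusted p under 0.05, and 6 were not called. The 11 include Slc7a6os, and Slc3a1 and Slc36a1, which passed the filter only through the NC arrays, where they were high. Over all 10861 named genes tested, 36.1% were called higher and 28.9% lower. The median difference of the 22 genes was -0.30, beside 0.04 over all genes. At 2-fold or more, 4 genes were higher and 3 lower, with a lower bound in place of the fold for genes that 1 group did not show above background (Slc36a1 falls under 2-fold by it), where 3.76% of all genes were higher and 7.21% lower by that rule. The groups did not overlap for 15 of the 22 genes, and for 62.4% of all genes. The split depends on how arrays are scaled: scaling to the median gave 9 higher and 6 lower, and scaling to the spike-in controls gave 12 higher and 4 lower. Those scalings moved the median difference of all kept probes to 0.28 and 0.50, against -0.03 with the 75th percentile, so genes with small differences change side with them. Under all 5 scalings run, 4 genes were called higher (Slc1a3, Slc6a6, Slc6a8 and Slc7a9) and 4 lower (Slc3a1, Slc7a11, Slc36a1 and Slc38a7). With normexp background correction Slc1a3, Slc6a8, Slc7a9 and Slc7a11 were still called, whereas Slc6a6 (0.62, adjusted p = 0.081), Slc38a7 (-0.70, adjusted p = 0.072), Slc3a1 (-0.80, adjusted p = 0.093) and Slc36a1 (-0.68, adjusted p = 0.17) were not. Of 12 common reference genes such as Gapdh and Actb, 7 were higher, 2 lower and 3 not called with the 75th percentile, with a median of 0.22.

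**Figure D2:**
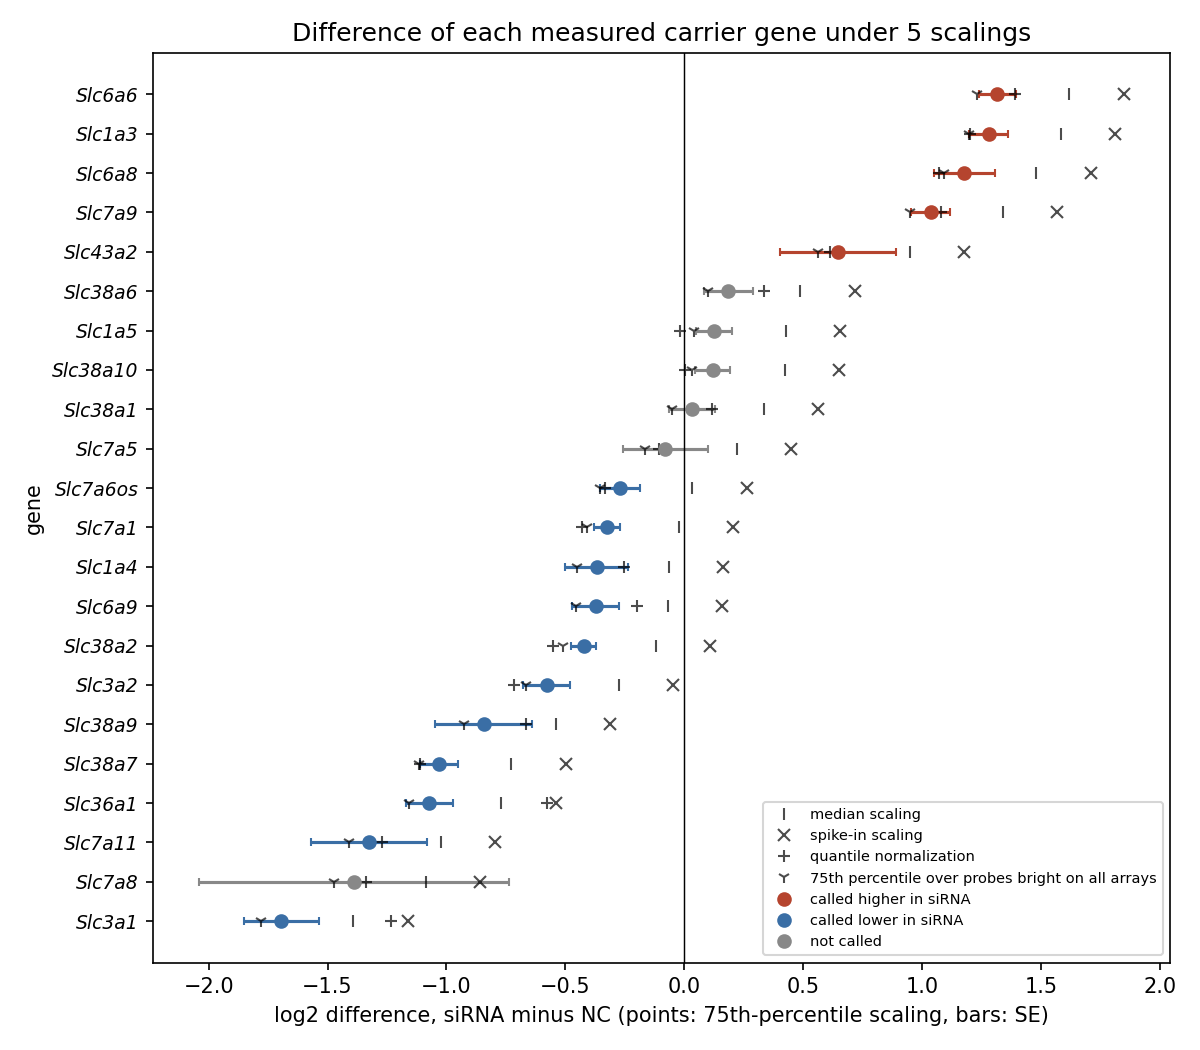
Difference of each of the 22 measured genes, siRNA minus NC on the log2 scale, with its SE (coloured points and bars, 75th-percentile scaling) and the value under 4 other scalings (black marks). The 4 genes at the top and Slc3a1, Slc7a11, Slc36a1 and Slc38a7 at the bottom keep their side under every scaling, while Slc7a6os, Slc7a1, Slc1a4, Slc6a9 and Slc38a2 lie above 0 with spike-in scaling.

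Slc1a3, also called EAAT1 or GLAST, takes up glutamate with sodium and is best known from astrocytes. It was the 1 gene measured of the 5 Slc1 glutamate carriers on the array, and it was higher in siRNA cells. Its brightest probe (rn4 chr2:58270419-58270478, minus strand) read 2.50, 2.55, 2.45 and 2.69 on the siRNA arrays, against 1.45, 1.20, 1.16 and 1.26 on the NC arrays. Every siRNA array was above every NC array. The difference was 1.28 ± 0.08 (SE, n = 4 arrays a group), or 2.43-fold, with an adjusted p of 1.25e-05 in limma. Its other probe gave 1.18 ± 0.11 (adjusted p = 8.70e-05 in limma), also with no overlap.

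The creatine and taurine carriers were higher as well. Slc6a6 (TauT) imports taurine, an osmolyte that the liver conjugates to bile acids. It read -0.23, -0.47, -0.26 and -0.36 on the siRNA arrays, against -1.55, -1.75, -1.72 and -1.57 on the NC arrays, a difference of 1.32 ± 0.08 (SE, n = 4) or 2.49-fold, with an adjusted p of 7.65e-06 in limma. The gap between the groups was several times the range within either. Slc6a8 imports creatine, the carrier of high-energy phosphate. It read 4.32, 4.45, 4.45 and 4.33 on the siRNA arrays, against 3.46, 3.42, 2.95 and 3.01 on the NC arrays. Its difference was 1.18 ± 0.13 (SE, n = 4), or 2.26-fold (adjusted p = 0.00015 in limma), while a second, dimmer probe of the gene gave 0.39 ± 0.07 (adjusted p = 0.00138), so both probes were higher, the dimmer one by less. The third gene of this group, Slc6a12, the betaine and GABA carrier, was above background on 2 siRNA arrays and on no NC array and was not tested. Its levels were -3.86, -3.70, -4.78 and -4.91 on the siRNA arrays, against -6.35, -6.70, -6.29 and -5.94 on the NC arrays. All NC values, and those of siRNA replicates 3 and 4, lay below the lowest signal marked above background on their array. The groups did not overlap, as for 62.4% of all tested genes, and below that floor this adds no support.

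The heavy chain Slc3a1 and its light chain Slc7a9 moved in opposite directions. Together they form the transporter that takes up cystine and dibasic amino acids in kidney and intestine, and in humans mutations of either cause cystinuria. Slc7a9 read -0.13, 0.04, -0.05 and 0.07 on the siRNA arrays, against -1.19, -1.15, -0.91 and -0.97 on the NC arrays. It was higher in siRNA cells by 1.04 ± 0.08 (SE, n = 4), or 2.05-fold, with an adjusted p of 3.12e-05 in limma. Slc3a1 read -5.38, -4.81, -4.69 and -4.63 on the siRNA arrays, none of them well above background, against -3.29, -3.11, -3.15 and -3.20 on the NC arrays, all 4 above background. Its fall is therefore a bound, at least 2.42-fold lower in siRNA cells, with an adjusted p of 7.66e-05 in limma for the measured means of -4.88 in siRNA cells and -3.19 in NC cells. Since the gene passed the filter through NC alone, where it is high, this p describes these values and adds no support. The bound sets the bright group's mean against the higher of each dim array's detection floor and its own signal.

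Slc36a1 (PAT1), a proton-coupled carrier of small amino acids found on lysosomes, showed the same change in detection and was chosen for description after its values were seen. It read -4.52, -4.83, -4.59 and -4.89 on the siRNA arrays, none above background, against -3.60, -3.60, -3.57 and -3.78 on the NC arrays. The bound for siRNA cells was at least 1.77-fold lower, and the adjusted p in limma was 6.57e-05, again for a gene that passed the filter through NC alone. Such changes in detection were not rare on these arrays: 277 of 10861 genes (2.55%) were above background on 4 NC and 0 siRNA arrays, and 57 (0.525%) on 4 siRNA and 0 NC arrays. Among the markers, Asgr1 of hepatocytes and Vwf and Tek of endothelium were on the NC side, and Cdh5 of endothelium was on the siRNA side; their part in the Slc3a1 and Slc36a1 values was not tested.

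The RNA of the carrier of the other route of cystine import, Slc7a11, was lower. Slc7a11 (xCT) pairs with Slc3a2 and exchanges glutamate for cystine, the limiting precursor of glutathione. It read -1.33, -1.19, -1.08 and -2.24 on the siRNA arrays, against -0.15, 0.00, -0.04 and -0.34 on the NC arrays. The groups did not overlap, and replicate 4 was the lowest array of both groups. The difference was -1.33 ± 0.24 (SE, n = 4), or 2.51-fold lower in siRNA cells, with an adjusted p of 0.00212 in limma. It was still called, at -1.07, with siRNA replicate 4 left out. The probe (rn4 chr2:139248421-139254202, minus strand) matches across 5782 genomic bases and therefore crosses at least 1 splice junction.

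Slc3a2, the heavy chain shared by Slc7a11, Slc7a5 and Slc7a8, was lower by less. It read 5.10, 4.91, 5.15 and 4.72 on the siRNA arrays, against 5.47, 5.56, 5.64 and 5.54 on the NC arrays. The groups did not overlap, and the difference was -0.58 ± 0.10 (SE, n = 4; adjusted p = 0.00145 in limma). With spike-in scaling it was -0.05 and not called (adjusted p = 0.67).

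**Figure D3:**
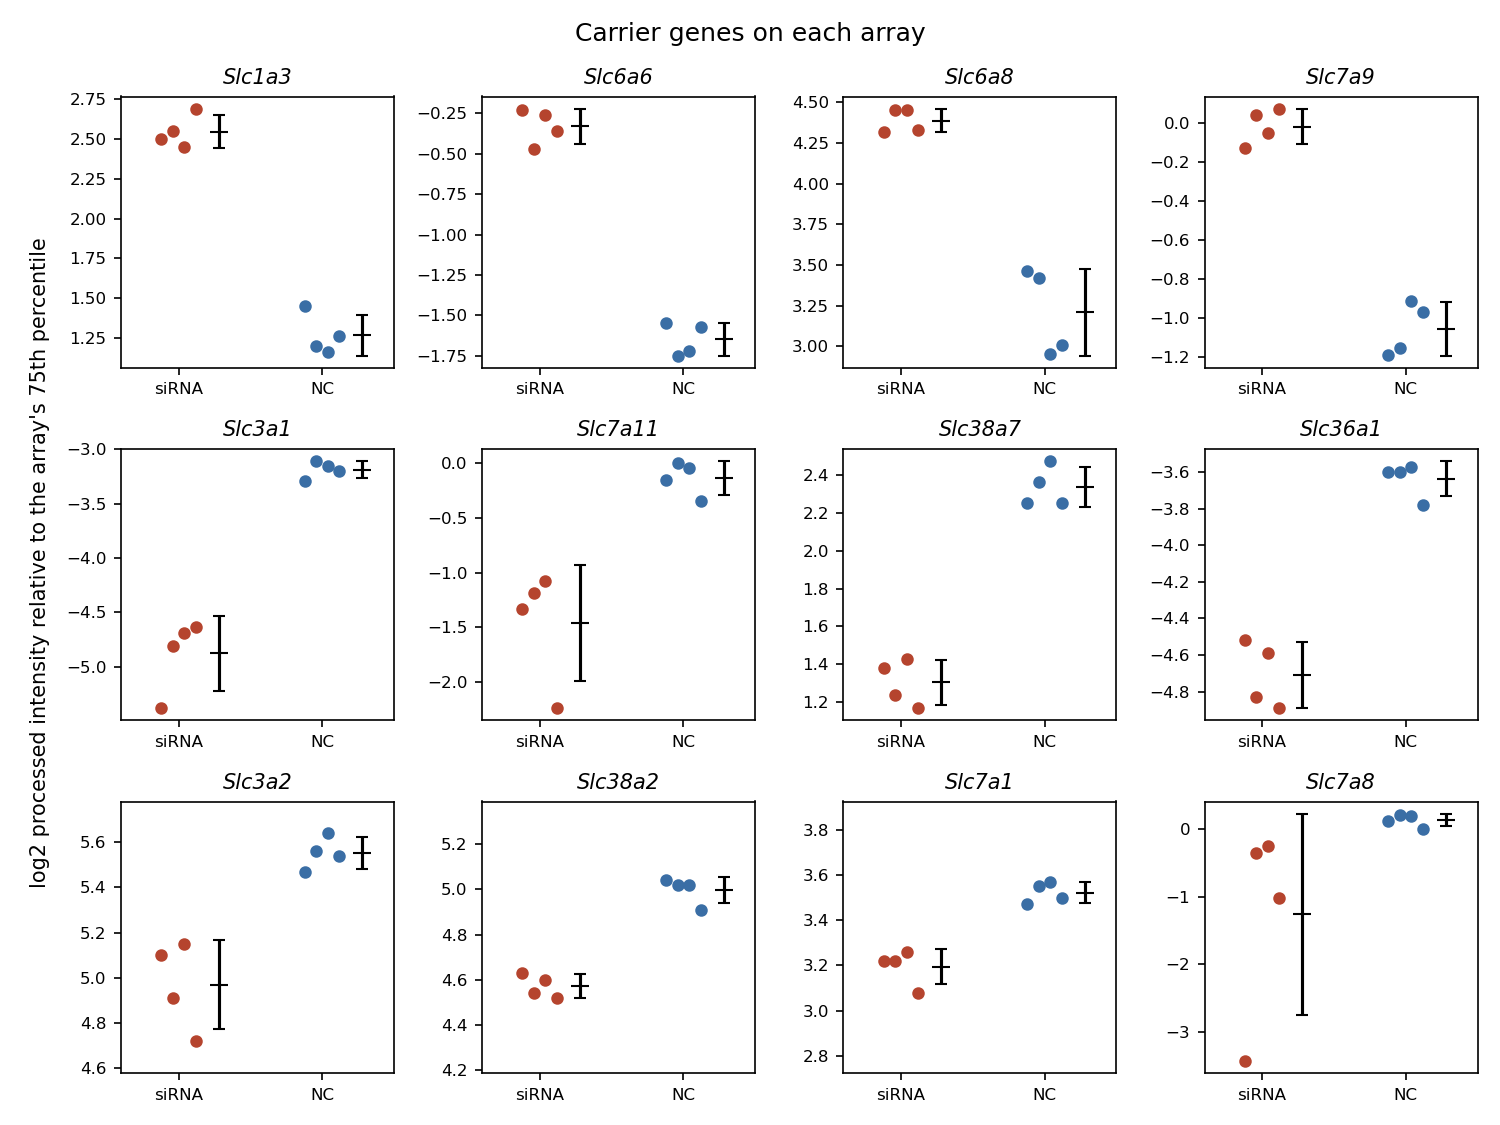
Level of 12 carrier genes on each array, as log2 processed intensity relative to the array's 75th percentile, with siRNA arrays (red) left of NC arrays (blue) and the mean with SD of 4 arrays in black beside them; each panel has its own vertical range. In 11 of the panels the difference was called, and in the Slc7a8 panel it was not, with 1 siRNA array at -3.42; Slc38a2 and Slc7a1 lie above 0 with spike-in scaling, which is not plotted here.

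The system L light chains, which exchange leucine and other large neutral amino acids, did not follow a common direction. Slc7a5 (LAT1) read 0.63, 0.57, 0.62 and -0.15 on the siRNA arrays, against 0.60, 0.58, 0.49 and 0.32 on the NC arrays. Apart from replicate 4, the lowest in both groups, the groups covered about the same range. The difference was -0.08 ± 0.18 (SE, n = 4; adjusted p = 0.71 in limma), with the sign turned to 0.22 by median scaling, to 0.45, with a call, by spike-in scaling and to 0.11 without siRNA replicate 4. Slc7a8 (LAT2), described because its arrays were so far apart, read -3.42, -0.36, -0.25 and -1.02 on the siRNA arrays, against 0.12, 0.20, 0.19 and 0.00 on the NC arrays. All 4 siRNA arrays were below all NC arrays, but the spread among them left the difference of -1.39 ± 0.65 uncalled (SE, n = 4; adjusted p = 0.097 in limma). Without siRNA replicate 1 it was -0.67 and called (adjusted p = 0.018). Slc43a2 (LAT4), which lets these amino acids leave the cell without exchange, was called higher at 0.65 ± 0.24 (SE, n = 4; adjusted p = 0.048 in limma), with overlapping groups. It kept that call in 1 of the 8 fits with an array left out, the one without siRNA replicate 4, and lost it with quantile normalization (adjusted p = 0.055). One further probe of the gene gave 0.67 and was called, and another gave 0.04 and was not.

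For Slc38a2, Slc1a5, Slc1a4, Slc38a1, Slc38a6 and Slc38a10, the ASC and other Slc38 carriers, the call changed with the scaling. Slc38a2 (SNAT2), the system A carrier that cells induce when amino acids are scarce, read 4.63, 4.54, 4.60 and 4.52 on the siRNA arrays, against 5.04, 5.02, 5.02 and 4.91 on the NC arrays. It was lower with no overlap, by -0.42 ± 0.05 (SE, n = 4, adjusted p = 0.000248 in limma), and by -0.58 on its other probe. However, Slc38a2 was not called with median scaling, at -0.12, or with spike-in scaling, at 0.11. Slc1a5 (ASCT2), the main glutamine exchanger of proliferating cells, read 4.89, 4.80, 4.85 and 4.59 on the siRNA arrays, against 4.74, 4.66, 4.65 and 4.58 on the NC arrays. The groups overlapped and the difference of 0.13 ± 0.08 was not called (SE, n = 4; adjusted p = 0.18 in limma), whereas without siRNA replicate 4 it was 0.19 and called. Median and spike-in scaling called Slc1a5 higher, at 0.43 and 0.66, and quantile normalization put it at -0.016 without a call. Slc1a4 (ASCT1) was lower at -0.37 with overlapping groups (adjusted p = 0.041 in limma). It was not called with median scaling (-0.07), quantile normalization (-0.25) or spike-in scaling (0.16). Its call was also lost without any 1 of 6 of the 8 arrays, siRNA replicate 3 and NC replicate 3 being the exceptions. Slc38a1, Slc38a6 and Slc38a10 lay at 0.03, 0.18 and 0.12 and were not called. Median and spike-in scaling called all 3 higher, at 0.33 to 0.49 and at 0.56 to 0.72, quantile normalization also called Slc38a6 higher, at 0.34, and Slc38a10 was called, at 0.18, without NC replicate 4.

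Among lysosomal carriers, Slc38a7 (SNAT7), which exports glutamine and asparagine from lysosomes, was lower under every scaling. It read 1.38, 1.24, 1.43 and 1.17 on the siRNA arrays, against 2.25, 2.36, 2.47 and 2.25 on the NC arrays, with a gap of more than the range of either group between them. The difference was -1.03 ± 0.08 (SE, n = 4), or 2.04-fold lower in siRNA cells, with an adjusted p of 3.01e-05 in limma. Slc38a9, the lysosomal arginine sensor upstream of mTORC1, was lower by -0.84 ± 0.20 (SE, n = 4; adjusted p = 0.00792 in limma), and by -0.31 without a call under spike-in scaling. The siRNA arrays read -2.72, -2.78, -2.71 and -2.85, against -2.25, -2.35, -1.40 and -1.68 on the NC arrays, so most of its spread lay within NC.

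Slc7a1 (CAT-1), the general importer of arginine and lysine, was the cationic carrier that could be measured. It was lower on both of its probes, at -0.33 ± 0.06 and -0.55 ± 0.08 (SE, n = 4), with adjusted p values of 0.00138 and 0.000656 in limma and no overlap. With spike-in scaling the brighter probe instead stood at 0.20 and was called higher, and with median scaling it stood at -0.02 and was not called. Slc6a9 (GlyT1) was lower at -0.37 ± 0.10 (SE, n = 4, adjusted p = 0.0117 in limma). It was not called with median scaling (-0.07), quantile normalization (-0.20) or spike-in scaling (0.16).

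The promoters of the measured genes were searched on both strands for TGATGNAA, the letters of the C/EBP-ATF response element through which ATF4 is known to act, and for TGANNNNGC, the core of the antioxidant response element bound by NRF2. RefSeq promoter sequences of GRCr8, in windows of 300 bases that span the start of the gene, were found for 20 of the 22 genes. TGATGNAA was in 3 of the 20, beside 3.82% of 27457 rat promoters, and TGANNNNGC was in 9 of the 20, beside 40.4%. The 3 genes with TGATGNAA were Slc7a1, called lower, Slc1a4, called lower, and Slc38a1, not called. The 30-base windows below show the matched letters in capitals, which in Slc1a4 run on the other strand; the match starts at -30, -235 and -142 relative to the start.
Slc7a1: cggcgcgcggcTGATGAAAccggctcggat
Slc1a4: cgcctccagcgTTGCATCAtccagccagca
Slc38a1: gggggaaactcTGATGCAAccaaccagtcc
The whole Slc7a1 window (GRCr8 chr12:11664238-11664537, plus strand) is shown because it is the match nearest to a start.
Slc7a1 promoter: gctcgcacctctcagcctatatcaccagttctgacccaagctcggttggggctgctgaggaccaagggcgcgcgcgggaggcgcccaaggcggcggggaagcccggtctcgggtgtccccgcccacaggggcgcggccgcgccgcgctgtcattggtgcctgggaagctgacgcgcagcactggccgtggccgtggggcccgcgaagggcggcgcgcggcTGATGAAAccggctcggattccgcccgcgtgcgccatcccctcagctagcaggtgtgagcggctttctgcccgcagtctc

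Slc7a6os, the gene beside Slc7a6 that encodes no carrier, was the gene with measured probes called in opposite directions. Its brightest probe (rn4 chr19:36051099-36051158, minus strand) read 1.48, 1.53, 1.56 and 1.28 on the siRNA arrays, against 1.86, 1.80, 1.69 and 1.59 on the NC arrays. It was lower without overlap, by -0.27 ± 0.08 (SE, n = 4; adjusted p = 0.0247 in limma), and lost the call without NC replicate 1 (adjusted p = 0.062) or NC replicate 2 (adjusted p = 0.065), and stood at 0.03 with median scaling and at 0.26, called higher, with spike-in scaling. A second probe (rn4 chr19:36051574-36051633, plus strand) was higher at 0.20 ± 0.07 (adjusted p = 0.0304), and the third (rn4 chr19:36051131-36051190, plus strand) was not called at -0.15. RefSeq places Slc7a6os on the minus strand and Slc7a6 on the plus strand of GRCr8, and none of 17 neighbouring genes within 500 kb is turned round between the builds. The brightest probe thus lies on the strand of Slc7a6os and the other two on the strand of Slc7a6. The brightest probe and the third share 28 bases on opposite strands, shown here because these letters are read from both sides.
Brightest Slc7a6os probe, shared stretch: ctgctatcaccatacagtgtgtatgaat
Other Slc7a6os probe, shared stretch: attcatacacactgtatggtgatagcag
The probe named for Slc7a6 itself, a light chain of Slc3a2, was above background on no array. The Slc7a6os probes on the strand of Slc7a6 were each above background on 4 siRNA and 4 NC arrays. Whether they read RNA of Slc7a6 was not tested.

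**Figure D4:**
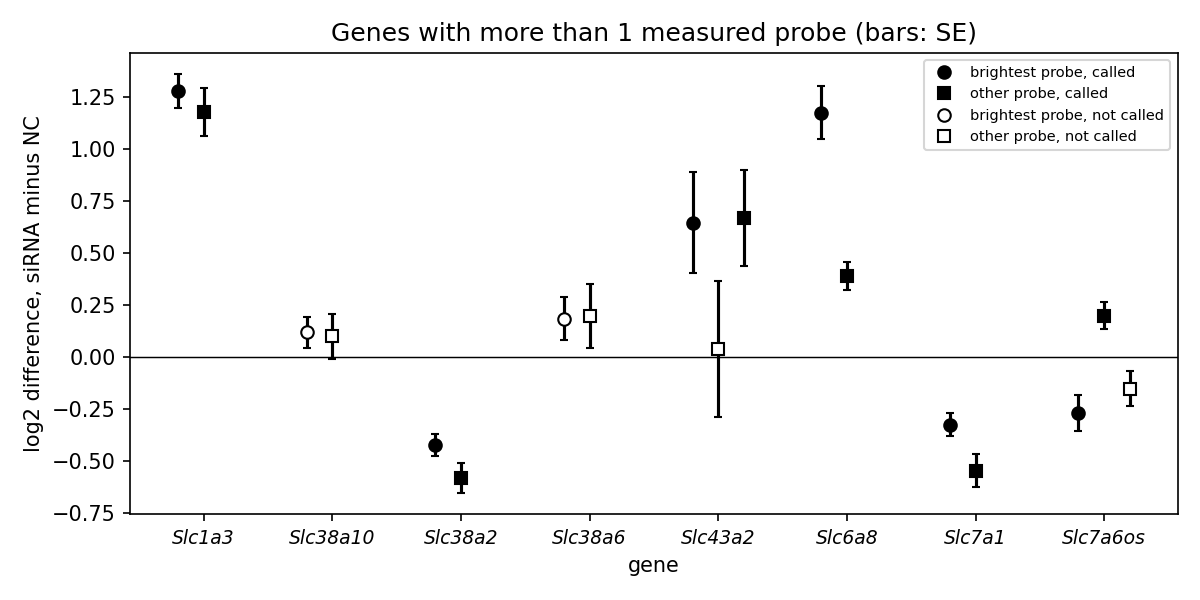
Difference, siRNA minus NC on the log2 scale with SE, of each measured probe of the 8 genes with more than 1 such probe; circles are the brightest probe, squares the others, and filled marks were called. With this 75th-percentile scaling, probes of Slc1a3, Slc38a2, Slc6a8 and Slc7a1 lie on 1 side of 0 and the Slc7a6os probes on both, while with spike-in scaling the brightest probes of Slc38a2, Slc7a1 and Slc7a6os lie above 0.

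Genes that work with the carriers were counted from 5 lists, without a test of the lists, and each count stands beside 36.1% higher and 28.9% lower over all genes. Of 20 measured regulators and targets of the amino acid response, 12 were lower, 3 higher and 5 not called, with a median of -0.31. The sensor gene of uncharged tRNA, Eif2ak4 (GCN2), was higher at 0.29 ± 0.07 (adjusted p = 0.00592), as were Ddit4, an inhibitor of mTORC1, at 0.49 ± 0.06 (adjusted p = 0.000244) and Phgdh, the first enzyme of serine synthesis, at 0.14 ± 0.05 (adjusted p = 0.0421). Lower were Sesn2, which binds leucine and restrains mTORC1, at -1.11 ± 0.06 (adjusted p = 4.02e-06), Chac1, which degrades glutathione, at -1.20 ± 0.07 (adjusted p = 9.86e-06), and the stress factor Atf3, at -1.90 ± 0.19 (adjusted p = 9.60e-05). Atf4 itself, named here after its value was seen, averaged 6.77 ± 0.16 in siRNA cells and 7.33 ± 0.10 in NC cells (SD, n = 4 each) and was lower by -0.56 (adjusted p = 0.00116 in limma). Under spike-in scaling this list gave 11 higher and 5 lower. That scaling moves all genes alike and took Slc3a2 from -0.58 to -0.05, so the lower value of Atf4 depends on the scaling.

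Cystine and glutathione genes, next in the path after Slc7a11, were 2 higher, 5 lower and 4 not called of 11, where 36.1% of all genes were higher and 28.9% lower. Gclc, the catalytic subunit of the first step of glutathione synthesis, was higher at 0.68 ± 0.10 (adjusted p = 0.000554), and Gpx4, which reduces lipid peroxides with glutathione, at 0.51 ± 0.06 (adjusted p = 0.000209). Cth, which makes cysteine from cystathionine, was lower at -1.005 ± 0.09 (adjusted p = 4.80e-05), and Txnrd1, thioredoxin reductase, at -0.26 ± 0.06 (adjusted p = 0.00645). Ggt1, which breaks down extracellular glutathione, was above background on no siRNA array and on 3 NC arrays and was lower, with a log2 bound of -0.51 (adjusted p = 6.45e-05, for a gene kept through NC alone). The median of the list was -0.12, and with spike-in scaling 8 were higher and 2 lower. A gene lower by as little as Txnrd1 changes side with that scaling, as Slc6a9 did, from -0.37 to 0.16.

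Of 9 measured carriers of other families, 6 were lower and none higher, with a median of -0.84, where 28.9% of all genes were lower and 36.1% higher. They included the lysosomal cystine exporter Ctns at -1.01 ± 0.12 (adjusted p = 0.000232), the vesicular glutamate carrier Slc17a6 at -2.07 ± 0.27 (adjusted p = 0.000343) and the lysosomal histidine and peptide carrier Slc15a4 at -0.24 ± 0.05 (adjusted p = 0.00296). With spike-in scaling this became 4 higher and 3 lower. Slc15a4 was lower by less than Slc6a9, which that scaling moved from -0.37 to 0.16, so the side of Slc15a4 also turns with it. Partners and regulators were 3 higher, 2 lower and 3 not called of 8, near the shares of all genes. Nedd4, a ubiquitin ligase, was higher at 0.42 ± 0.05 (adjusted p = 0.000286), as were Bsg at 0.41 ± 0.06 (adjusted p = 0.000557), a membrane partner of other solute carriers, and Itm2b at 0.18 ± 0.06 (adjusted p = 0.0373). Cltrn (collectrin), a partner of Slc6 amino acid carriers in kidney, was above background on 4 NC and 0 siRNA arrays and was lower, with a log2 bound of -1.54 (adjusted p = 4.61e-06, for a gene kept through NC alone), and the kinase gene Sgk1 was lower at -1.14 ± 0.11 (adjusted p = 9.44e-05).

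Of 30 measured mTORC1 sensing genes, 10 were higher, 10 lower and 10 not called, near the 36.1% and 28.9% of all genes. The sestrin genes parted: Sesn3 was higher at 0.95 ± 0.07 (adjusted p = 1.83e-05) and Sesn1 at 0.80 ± 0.07 (adjusted p = 5.73e-05), while Sesn2 was lower, as given above. Tfeb, the transcription factor of lysosomal genes, was higher at 0.63 ± 0.06 (adjusted p = 0.000106). Both folliculin partners were lower, Fnip2 at -1.05 ± 0.07 (adjusted p = 1.38e-05) and Fnip1 at -0.82 ± 0.09 (adjusted p = 0.000128). With spike-in scaling 20 were higher and 4 lower. The plot of the 5 lists shows this spread.

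**Figure D5:**
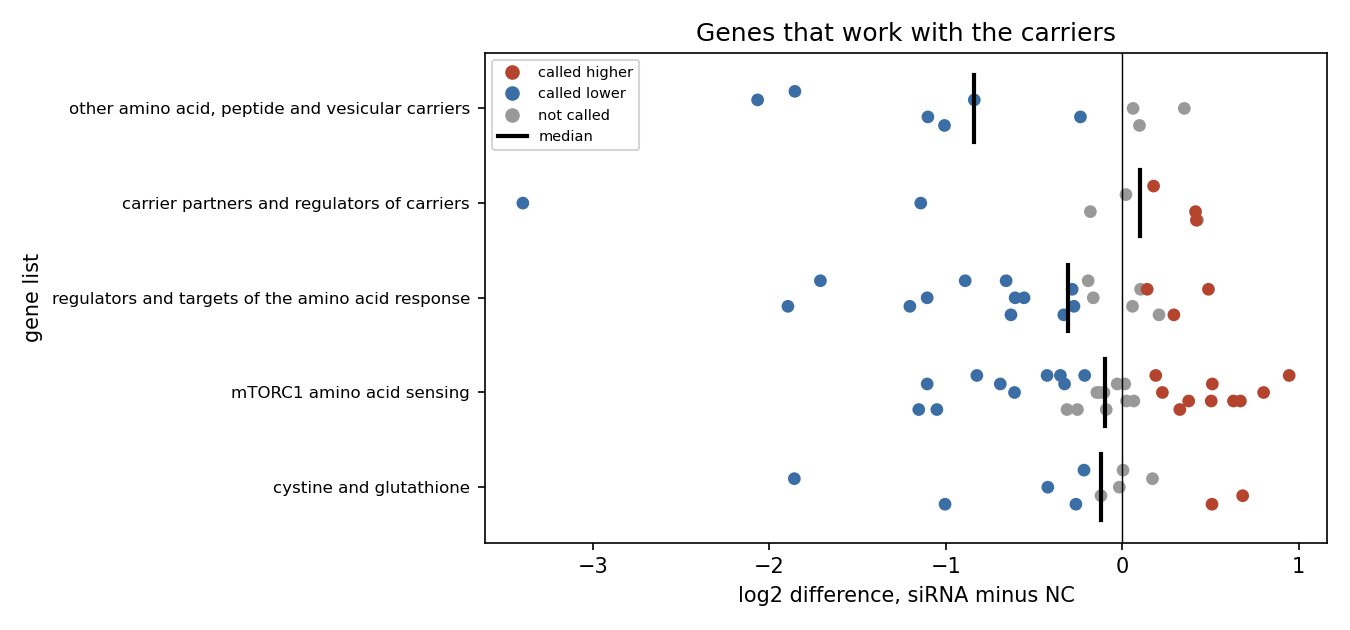
Difference, siRNA minus NC on the log2 scale, of each measured gene in 5 lists of genes that work with the carriers; red points were called higher, blue lower and grey not called, and the black bar is the median of the list. Medians run from -0.84 for other carriers to 0.10 for partners, and the points of the mTORC1 list lie on both sides of 0.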

How the data were processed

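The authors hybridised Cy3-labelled RNA to Agilent rat 4x44K arrays. Per the file headers, the deposited processed intensity is background-subtracted and detrended by Agilent Feature Extraction and not scaled between arrays; the mean spot and local background intensity are deposited too. The authors' deposited series table of log2 values on 86 probes holds 1 member probe (Slc6a7, above background on no array), so it gave no comparison.

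Intensities were taken to log2 and the 75th percentile of the array was subtracted. Control spots and 129 to 174 outlier spots per array were left out, no spot was saturated, and spots of a probe were averaged. Probes well above background, by the scanner's own mark, on at least 3 arrays of a group were kept (24853 of 41012). limma 3.58.1 in R 4.3.3 compared siRNA with NC (4 arrays each, two-sided), with Benjamini-Hochberg adjustment over kept probes and calls under 0.05. A gene is its brightest kept probe, and positions are the array design's (rn4). Members go by the gene name that the array gives. Other genes were named from the probe's accession through RefSeq (GRCr8), or else from a current symbol, an older symbol or the array's own name. The number of arrays limits the precision.

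On simulated data of 24829 probes, few of them changed, the fit recovered 12%, 46%, 74% and 96% of changes of 0.25, 0.5, 1 and 2 (log2), with 6 of 120 calls false. The real fit called 7389 probes higher and 7938 lower of 24853. Its adjusted p threshold therefore admitted far more probes, and the simulated shares do not carry over to it. Alternatives covered scaling, background correction, the dim-probe filter, the probe per gene, the threshold, a replicate block and leaving out each array. Members and lists were chosen with earlier results of these data known. The text gives array values for genes called at 2-fold or more, for Slc3a2, Slc7a5, Slc7a11, Slc1a5 and Slc38a2, and for genes with probes called in opposite directions, and up to 3 called genes per direction and list; others were chosen after their values were seen. One member is counted but not reported by name here.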

Additional observations from a re-analysis of the deposited data

Results flagged for a closer look

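In 4 of 44 groups of 4 arrays (22 genes, 2 groups each), 1 array stood apart from the other 3 by more than Dixon's critical value, which chance gives in about 1 of 20 groups. For Slc7a5, siRNA replicate 4 read -0.15, where the other siRNA arrays read 0.57 to 0.63. For Slc6a9, siRNA replicate 4 read -2.86, where the others read -2.49 to -2.42. For Slc38a2, NC replicate 4 read 4.91, where the others read 5.02 to 5.04. For Slc36a1, NC replicate 4 read -3.78, where the others read -3.60 to -3.57. All 4 values are low ones from arrays numbered 4. Over the 22 measured genes, siRNA replicate 4 was the lowest siRNA array for 12 and NC replicate 4 the lowest NC array for 8. The cause was not tested.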

How the results depend on the processing

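Beside the 5 higher and 11 lower genes (Slc7a6os, which encodes no carrier, included), median scaling gave 9 and 6, spike-in scaling 12 and 4, and normexp background correction 3 and 1; the other settings gave 4 to 6 higher and 8 to 13 lower, and leaving out 1 array gave 4 to 6 higher and 9 to 11 lower. The sign turned with spike-in scaling for Slc1a4 (0.16), Slc38a2 (0.11), Slc6a9 (0.16), Slc7a1 (0.20), Slc7a5 (0.45) and Slc7a6os (0.26), and with median scaling for Slc7a5 (0.22) and Slc7a6os (0.033). It also turned for Slc1a5 with quantile normalization (-0.016), for Slc38a1 with the percentile over bright probes (-0.054) and with normexp (-0.13), and for Slc38a6 with normexp (-0.31) and normexp after leaving out spots below local background (-0.0001); none of these was called before or after. With 1 array left out, Slc38a1 ran from -0.036 to 0.11 and Slc7a5 from -0.15 to 0.11. With median scaling the higher and lower counts were 16 and 5 for mTORC1 sensing and 5 and 2 for cystine and glutathione, and the higher counts were 6 for the amino acid response, 5 for partners and 3 for other carriers. With spike-in scaling they were 20 and 4 for mTORC1 sensing, 8 and 2 for cystine and glutathione, 11 and 5 for the amino acid response and 4 and 3 for other carriers, and 6 partners were higher. With quantile normalization 1 other carrier was higher. By construction, a shift common to all genes moves these counts; which scaling is nearer to the RNA content of the cells was not tested. Normexp left few calls over all probes too, 1972 higher and 1677 lower, and the cause was not tested.

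The labels do not say whether a replicate number pairs the arrays. Same-numbered arrays deviated together at r = 0.01, 0.03, -0.03 and 0.21, beside at most 0.09 for arrays of different numbers. The value for number 4 was thus above all of those, and pairing was not settled. A fit with the replicate block gave 5 higher and 10 lower, Slc1a4 losing its call (adjusted p = 0.087). The slide as a random block was not run, since each group lies on 1 slide.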
